A study of Mus musculus with 6 samples.

Results

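The transglutaminase genes Tgm1, Tgm2, Tgm3 and Tgm5 were described across 6 RNA-seq libraries of primary mouse keratinocytes irradiated with UVB. They are the 4 genes, of 55416 in the count table, whose symbol is on a list of the family chosen by name. The family was taken up because Tgm3 was among the deepest falls in knockout cells, so the difference between genotypes in these 4 genes is what chose them. It is given here as a description, and nothing is read from its test.

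The study asked how the transcription factor C/EBPβ shapes apoptosis and the interferon and TNF responses of keratinocytes after DNA damage. Cells came from the epidermis of wild type and Cebpb knockout pups aged 1 to 2 days, on a hybrid of C57BL/6J and 129, and whether the libraries stand for separate animals is not in the labels. Both genotypes were grown in 0.05 mM calcium chloride with EGF, irradiated 5 days after plating (UVB at 10 mJ/cm2, lamp at 312 nm), and harvested after 8 h. There were 3 libraries from wild type cells (1, 2 and 3), 3 from knockout cells (4, 5 and 6) and none from unirradiated cells, so the effect of UVB itself cannot be read from it.

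Transglutaminases are calcium-dependent enzymes that join a glutamine of one protein to a lysine of another by an isopeptide bond. In the outer epidermis they weld precursor proteins into the cornified envelope, the insoluble shell of the dead surface cell. TG1 (Tgm1) sits at the keratinocyte membrane, and its loss causes lamellar ichthyosis. TG3 (Tgm3) is a soluble proenzyme of upper epidermis and hair follicle, TG5 (Tgm5) is lost in acral peeling skin syndrome, and TG2 (Tgm2) is the widely expressed tissue transglutaminase, which also works outside the cell on fibronectin and other matrix proteins.

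Whether reads of one member could be counted for another was looked at in the transcripts themselves. All 4 encode an active site cysteine in one of the best conserved stretches of the family, shown here as 63 coding bases with the cysteine codon in capitals, from the GENCODE M21 transcript with the longest reading frame.
Tgm1: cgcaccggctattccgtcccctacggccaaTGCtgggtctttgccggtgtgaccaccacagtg
Tgm2: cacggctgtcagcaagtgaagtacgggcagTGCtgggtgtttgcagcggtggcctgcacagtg
Tgm3: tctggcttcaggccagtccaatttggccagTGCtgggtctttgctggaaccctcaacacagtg
Tgm5: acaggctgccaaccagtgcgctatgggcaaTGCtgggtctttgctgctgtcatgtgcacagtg
Even in this stretch the members differed pairwise at 18 to 25 of the 63 bases, the closest pair being Tgm2 and Tgm5. Over whole transcripts the longest run shared by any 2 members was 22 bases, between Tgm1 and Tgm5. Against the 5 other homologues the longest was 24 bases, in Tgm1 against Tgm6 and in Tgm5 against Tgm7. Reads were 150 bp long and paired, per the labels' protocols, far beyond any such run. A member's reads should thus seldom be counted for another gene of the family. Genes outside the family were not compared.

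Tgm1 was by far the most abundant member and stood lower in knockout cells. Its counts were 48603, 44408 and 42390 in wild type libraries 1, 2 and 3, and 5857, 7406 and 4974 in knockout libraries 4, 5 and 6. As CPM (counts scaled to library size by edgeR's TMM method), these were 436, 382 and 425 against 61.5, 74.7 and 57.9. The lowest wild type library thus lay well above the highest knockout library. The knockout mean was 15.6% of the wild type mean, from 414 ± 28.4 to 64.7 ± 8.87 CPM (SD, n = 3 each), a log2 fold change of -2.68 ± 0.09 (SE, knockout over wild type as in all that follows). That value ranged from -2.79 to -2.48 over 12 alternative settings, the smallest with library totals as the scale.

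Tgm3 was nearly lost. It had 622, 599 and 767 counts in wild type libraries 1, 2 and 3 and 8, 6 and 4 counts in knockout libraries 4, 5 and 6. In CPM this was 5.58, 5.15 and 7.69 against 0.0841, 0.0605 and 0.0465, so all knockout libraries were about 2 orders of magnitude below the wild type ones, though each held more than the 3 counts taken as the floor. The knockout mean was 1.04% of the wild type mean, with a log2 fold change of -6.55 ± 0.28 (SE) and a range of -6.80 to -6.35 over the 12 settings. By this value Tgm3 stood 23rd from the deepest of 17659 genes tested.

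Tgm5 was the scarcest member in wild type cells, with 87, 71 and 118 counts there against 41, 45 and 35 in knockout libraries 4, 5 and 6. The CPM values were 0.780, 0.611 and 1.18 against 0.431, 0.454 and 0.407. The groups did not overlap, and wild type library 3 was the highest. The knockout mean was 50.2% of the wild type mean, a log2 fold change of -0.99 ± 0.31 (SE). Its range was -1.18 to -0.70 over 11 settings, the gene falling under the filter in the other one.

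Tgm2 differed least. Its counts were 566, 323 and 345 in wild type libraries 1, 2 and 3 and 300, 291 and 175 in knockout libraries 4, 5 and 6, or 5.07, 2.78 and 3.46 against 3.15, 2.94 and 2.04 CPM. The groups overlapped, since knockout libraries 4 and 5 both lay above wild type library 2. The log2 fold change was -0.48 ± 0.22 (SE). Without wild type replicate 1, the highest of the 6, it was -0.20, without knockout replicate 6, the lowest, -0.31, and with library totals -0.27.

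Of the 4 members, 3 were called lower by edgeR's quasi-likelihood test at an adjusted p under 0.05, where 23.7% of all genes tested were called lower, and in the same 3 the groups did not overlap, where this held for 27.6% of all genes in the downward direction. As the contrast chose the family, nothing is read from these counts. Library depth was 81256192 to 122797031 counts, every knockout library being shallower than every wild type one. By library totals, without TMM scaling, 3 counts corresponded to 0.0244 to 0.0369 CPM.

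**Figure D1:**
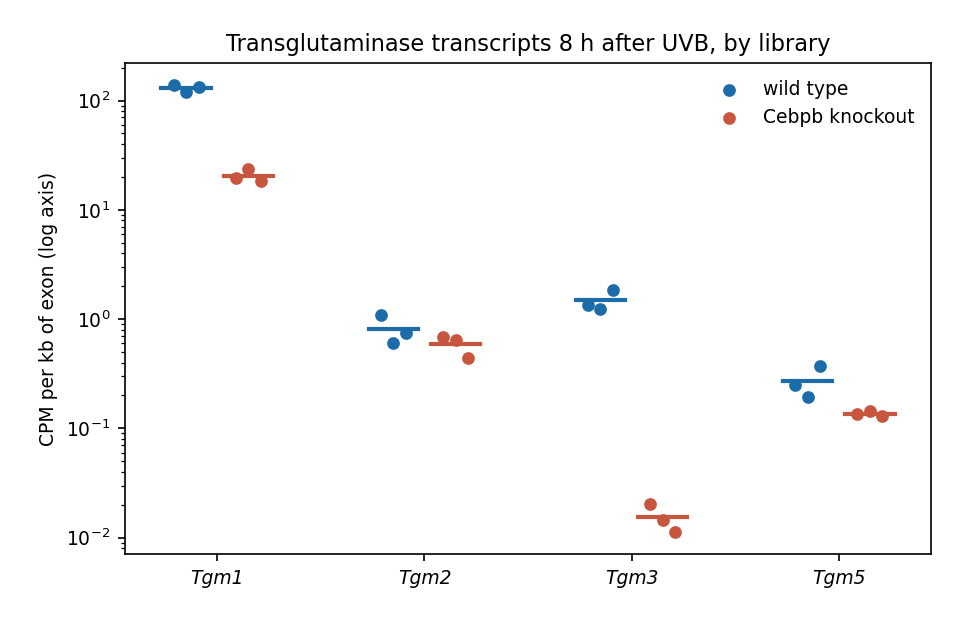
Level of each transglutaminase transcript in CPM per kb of exon (log axis) in 3 wild type (blue) and 3 Cebpb knockout (red) libraries, points being libraries and bars group means. Tgm3 lies second in wild type cells, at 1.49 on average, and last in knockout cells, at 0.0154, while the Tgm2 groups overlap.

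**Figure D2:**
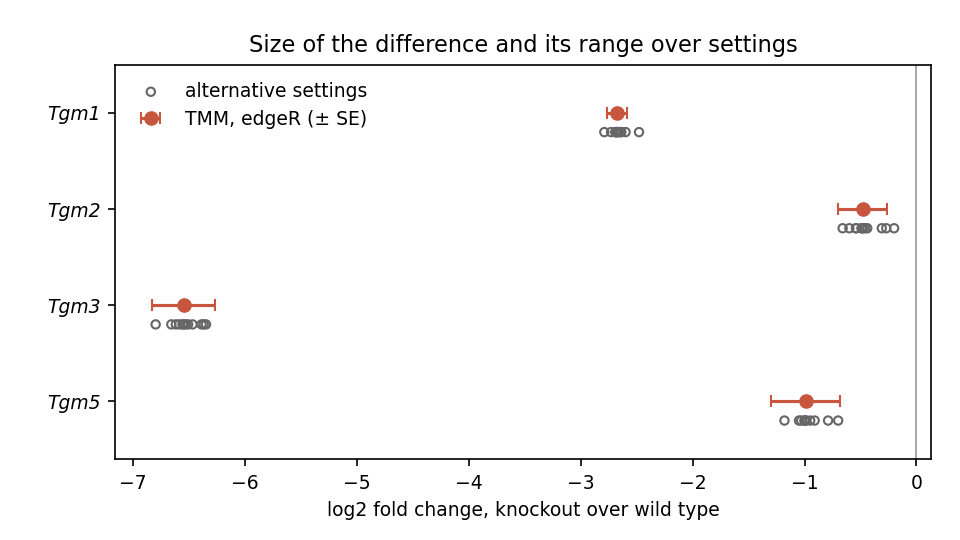
Log2 fold change of each member, knockout over wild type, with its SE (red) and the values under the alternative settings (open circles). All circles of each member lie below 0, and those of Tgm2 reach from -0.66 to -0.20.

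Per kb of exon the order of the members differed between genotypes. In wild type cells Tgm1 stood at 131 ± 9.00, Tgm3 at 1.49 ± 0.329, Tgm2 at 0.818 ± 0.256 and Tgm5 at 0.272 ± 0.0932 CPM per kb (SD, n = 3). In knockout cells Tgm1 stood at 20.5 ± 2.80, Tgm2 at 0.588 ± 0.129, Tgm5 at 0.137 ± 0.00743 and Tgm3 at 0.0154 ± 0.00459 CPM per kb (SD, n = 3). Neighbours in these orders did not overlap between libraries in either genotype. The nearest pair was Tgm3 and Tgm2 in wild type cells, with lowest and highest values of 1.25 and 1.10 CPM per kb. When the longest transcript served as the length, Tgm2 in wild type library 1 was 1.41 CPM per kb and that pair did overlap, while the order of the means was the same.

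Tgm1 made up most of the family's transcripts in both genotypes. Its share of the 4 members' summed CPM per kb was 97.8% to 98.3% in wild type libraries and 95.9% to 96.9% in knockout ones. The sum itself was 134 ± 9.42 in wild type and 21.2 ± 2.88 CPM per kb in knockout cells (SD, n = 3). Tgm3 took 0.960% to 1.35% of it in wild type libraries and 0.0596% to 0.1001% in knockout ones, whereas Tgm2 took 0.491% to 0.784% and 2.34% to 3.37%. There were 72.3 to 102 Tgm1 transcripts for each Tgm3 transcript in wild type libraries, by this measure, and 957 to 1626 in knockout libraries. The ratio of Tgm2 to Tgm5 was 2.00 to 4.45 in wild type libraries and 3.42 to 5.01 in knockout ones, ranges that overlapped. Among 17582 tested genes with a known exon length, Tgm1 ranked 400th in wild type and 2551st in knockout cells, and Tgm3 9372nd and 17414th.

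The 5 other homologues were at the edge of detection. Epb42, a catalytically inactive family member of red cells, had 0 counts in every library. This allows at most 0.0369 CPM in the shallowest one, by its total without TMM scaling (counting error only). The prostate gene Tgm4 reached 8 counts, in knockout library 5, and Tgm6 4 counts, in wild type library 1. Tgm7 had 3, 6 and 2 counts in wild type and 1, 0 and 6 counts in knockout libraries. F13a1, which encodes the clotting factor XIII subunit found in platelets and macrophages, had 16 counts in wild type library 1 and 1 count in all other libraries together. None passed the low count filter.

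Some genes had profiles across the 6 libraries close to those of the members, measured as the Euclidean distance between log2 CPM values centred on each gene's own mean. Nearest to Tgm1 were Grhl1, a grainyhead transcription factor gene of the epidermal barrier, at 0.168, Sprr2a3 at 0.231, the kallikrein gene Klk7 at 0.262, Fam83c at 0.289 and Aldh3b3 at 0.294. Grhl1 went from 274, 269 and 268 CPM in wild type libraries 1, 2 and 3 to 40.8, 45.4 and 37.4 CPM in knockout libraries 4, 5 and 6. Knockout library 5 was the highest of its group in both Grhl1 and Tgm1. The lowest wild type library was 3 in Grhl1 but 2 in Tgm1. Nearest to Tgm3 were Prl8a1 (0.608), the neutrophil collagenase gene Mmp8 (0.808), the Y-linked Uty (1.03), the acute-phase gene Saa3 (1.04) and Gm28588 (1.05). These distances are larger, and the 5 genes stood at 0.0489 CPM or less on average in knockout cells. For Tgm5 they were 9230116N13Rik, Snord37, Gm35439, Rpl18-ps1 and Klhl13 (0.269 to 0.324), and for Tgm2 Calhm5, Gm43857, Fam131c, Ch25h and Fut2 (0.238 to 0.345). With few libraries such profiles mostly carry the difference between the groups, in which genotype and Y-linked transcripts go together. The distances are a description only.

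Tgm2, Tgm3 and Tgm5 lie on mouse chromosome 2 and Tgm1 on chromosome 14, with Tgm3 next to Tgm6 and Tgm5 between Epb42 and Tgm7. Of the 24 protein-coding genes that make up the 3 on either side of each member, 16 were tested, and 4 were called higher and 4 lower by edgeR. Across all genes tested, 24.8% were called higher and 23.7% lower. The deepest called change among those lower was that of Rabggta, which follows Tgm1 and encodes a subunit that prenylates Rab proteins, from 54.6 ± 2.36 to 33.8 ± 0.436 CPM (-0.69 ± 0.07 log2 units, SE). Dhrs1 (-0.30), Nop9 (-0.40) and Tmem62 (-0.55) were the others called lower, and Dhrs1 and Tmem62 were not called with library totals. Beside Tgm3, the kinase gene Stk35 rose from 53.8 ± 3.03 to 94.3 ± 2.95 CPM (0.81 ± 0.06), and the splicing gene Snrpb was not called (-0.07 ± 0.05, edgeR adjusted p = 0.318, and 0.13 with library totals, also not called). Beside Tgm2, Tti1 rose by 0.78 and D630003M21Rik from 8, 9 and 4 counts in wild type to 41, 50 and 78 counts in knockout libraries. The Gmpr2 log2 fold change, near Tgm1, was 0.33 (edgeR adjusted p = 0.0211), a call lost without any 1 of wild type replicates 1 (edgeR adjusted p = 0.087) and 2 (0.0513) and knockout replicates 5 (0.0504) and 6 (0.0661). No tested neighbour of Tgm3 or Tgm1 was lower by as much as the member itself. As the fall of Tgm3 chose the family, nothing is read from this. Pdyn, Tgm6 and Tmc2, also beside Tgm3, did not pass the filter.

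**Figure D3:**
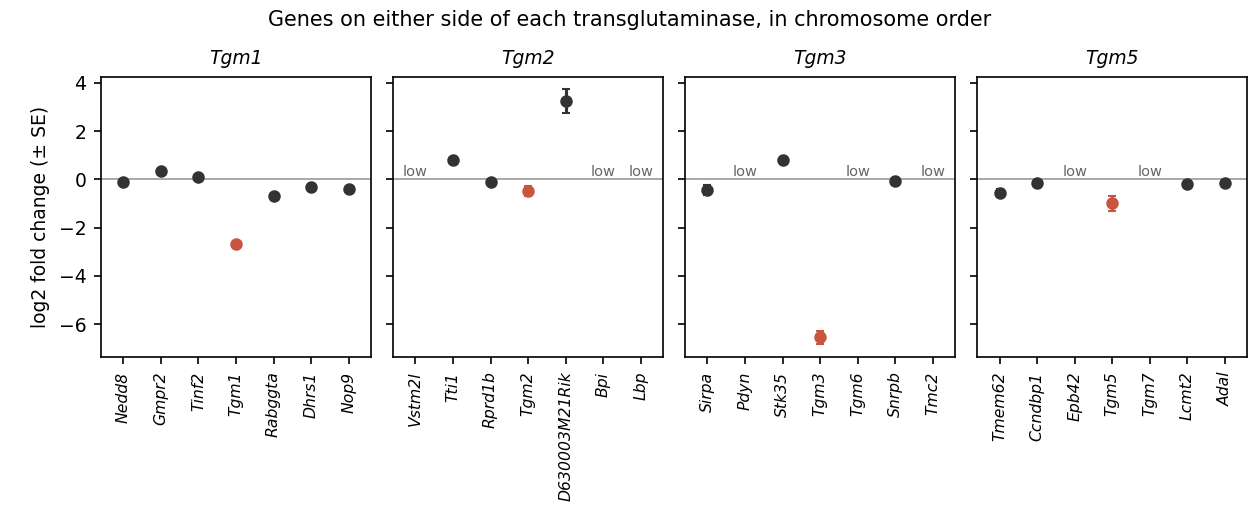
Log2 fold change with SE (knockout over wild type) of each transglutaminase (red) and of the 3 protein-coding genes on either side (black), in chromosome order, "low" marking genes that did not pass the low count filter. Tgm3 is at -6.55 and Tgm1 at -2.68, and their own tested neighbours lie between -0.69 and 0.81. The fall of Tgm3 is what chose the family.

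The promoter of Tgm3 is shown because this member was all but lost in cells without a C/EBP factor. RefSeq promoters were at hand for 3 of the 4 members (Tgm1 with a pair of start sites, Tgm3 and Tgm5), on GRCm38.p6, an older assembly than that of the counts. The 250 bases before the Tgm3 start, chr2:130012090-130012339 on the plus strand, follow with the only motif match in capitals.
Tgm3: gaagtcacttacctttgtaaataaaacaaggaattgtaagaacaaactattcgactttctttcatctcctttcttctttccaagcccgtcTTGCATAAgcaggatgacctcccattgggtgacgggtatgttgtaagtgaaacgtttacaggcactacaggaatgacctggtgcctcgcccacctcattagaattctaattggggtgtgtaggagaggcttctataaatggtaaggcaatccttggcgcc
Both strands were searched for the palindromic C/EBP sequence TTGCGCAA, for the looser TTGCNNAA, which contains it, and for the AP-1 sequence TGANTCA, all chosen after these promoters had been seen. Tgm3 held 1 match to TTGCNNAA, TTGCATAA at 160 to 153 bases before the start. The windows of Tgm1 and Tgm5 held no match to any of them. Over 32851 mouse promoters of this length, 9.56% held TTGCNNAA, 0.164% TTGCGCAA and 6.75% TGANTCA. A match in letters says nothing on binding, which was not measured.

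Genes for the substrates of the epidermal transglutaminases fell in knockout cells almost throughout. Of 59 genes of the cornified envelope in the data, 58 were tested, and 54 were called lower, 1 higher and 3 not called by edgeR, where 23.7% of all genes were called lower and 24.8% higher. The median log2 fold change was -2.39, against 0.01 over all genes tested. This list and those that follow were drawn up with earlier results of these data known, so their direction is not independent evidence. All of these are bulk values, in which fewer cells of a type and less RNA per cell cannot be told apart.

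The small proline-rich proteins, cross-bridges of the envelope, fell in 15 of 15 genes, from -3.74 to -0.70 log2 units. Among them the abundant Sprr1a went from 1731 ± 347 to 445 ± 95.3 CPM (-1.96 ± 0.19, SE). Sprr2a3 had the smallest p of the list, at 118, 105 and 111 CPM in wild type libraries 1, 2 and 3 and 16.8, 18.0 and 17.4 CPM in knockout libraries 4, 5 and 6. Late cornified envelope genes fell in 20 of 21, with a median of -2.82. Members of the Sprr2 and Lce families are near-identical copies that can share reads, so single values are uncertain. Large S100-fused proteins of the granular layer and hair sheath (6 of 6), such as Tchh, named after its value was seen, which encodes the TG3 substrate trichohyalin and went from 94.5 ± 4.62 to 37.8 ± 3.12 CPM, fell as well.

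Loricrin and involucrin, 2 classical substrates named here after their values were seen, differed in size of change. Lor went from 97.4, 86.3 and 91.6 CPM in wild type libraries 1, 2 and 3 to 7.29, 11.03 and 3.84 CPM in knockout libraries 4, 5 and 6 (-3.63 ± 0.35). Ivl went only from 29.7 ± 1.95 to 25.3 ± 1.10 CPM (-0.23 ± 0.08, edgeR adjusted p = 0.0282). The plakins on which the envelope is first assembled fell by less than Lor. Ppl, for periplakin, went from 947 ± 24.9 to 359 ± 13.03 CPM (-1.40) and Dsp, for desmoplakin, from 3235 ± 49.9 to 2035 ± 94.9 CPM (-0.67). The cysteine-rich Crct1 fell from 1043 ± 131 to 101 ± 20.4 CPM, and Serpinb2, a protease inhibitor cross-linked into the envelope, from 1454 ± 55.0 to 362 ± 54.6 CPM. The envelope's membrane-associated annexin and S100 proteins did not share this. S100a10 rose from 760 ± 39.9 to 960 ± 103 CPM (0.34 ± 0.07), while Anxa1 (-0.03 ± 0.06, edgeR adjusted p = 0.73) and S100a11 (0.06 ± 0.06, edgeR adjusted p = 0.384) were not called. Under library totals Anxa1 and S100a11 were called higher too (0.17 and 0.26).

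**Figure D4:**
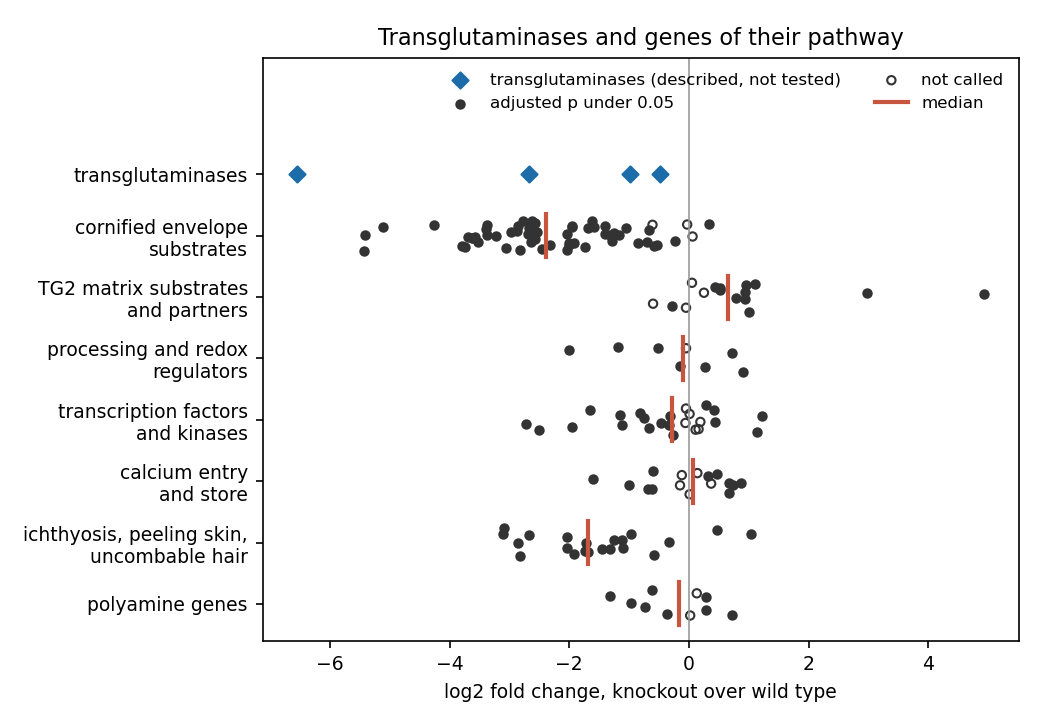
Log2 fold changes (knockout over wild type) of the 4 transglutaminases (blue diamonds) and of the tested genes of 7 lists, filled where the edgeR adjusted p is under 0.05, with each list's median in red. Substrates of the cornified envelope centre on -2.39, and matrix substrates and partners of TG2 on 0.66.

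Of 16 genes for TG2 substrates and cell surface partners, 11 rose and 1 fell, 4 being uncalled, where 24.8% of all genes tested were called higher and 23.7% lower. The median was 0.66, against 0.01 over all genes, and 13 rose and 0 fell with library totals. On that scale 6478 of the 17659 genes tested were called higher and 2452 lower, in place of 4387 and 4192. These all-gene counts apply to each count with library totals below. Fibronectin, Fn1, the chief matrix partner of TG2, stood at 122, 107 and 114 CPM in wild type libraries 1, 2 and 3 and at 847, 848 and 975 CPM in knockout libraries 4, 5 and 6 (2.97 ± 0.07, SE). The integrin chains that bind fibronectin with TG2, Itgb1 and Itga5, rose by 0.43 ± 0.08 and 0.52 ± 0.07, and the syndecan gene Sdc4 by 0.51 ± 0.07. Thbs1, for thrombospondin, rose from 245 ± 17.6 to 526 ± 53.2 CPM. The only fall, in the integrin gene Itgb5 (-0.29 ± 0.09), named after its value was seen, was lost without knockout replicate 5 or 6 and with library totals.

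Genes listed under processing and redox control of transglutaminases, not all of them for enzymes, went both ways. Of these, 3 of 8 rose, 4 fell and 1 had no call (4 and 3 with library totals). Over all genes 24.8% were called higher and 23.7% lower. Ctsl, for the cathepsin that cleaves the TG3 proenzyme, fell from 3301 ± 233 to 1442 ± 87.1 CPM (-1.19 ± 0.06), and Ctsd, for the cathepsin linked to TG1 activation, from 1466 ± 63.1 to 1033 ± 33.7 CPM (-0.51 ± 0.06). Cst6, for cystatin M/E, an inhibitor of cathepsin L and legumain and also an envelope substrate, fell from 111 ± 15.1 to 27.7 ± 6.23 CPM. That gene was named after its value was seen. Capn1, for calpain, was called lower at -0.15 ± 0.05, but lost that call in 6 of the 12 settings and had the opposite sign in another, library totals (0.05). Txn1, for thioredoxin, which reactivates oxidised TG2, rose by 0.26 ± 0.06, and Pdia3, whose product oxidises it, was not called (-0.05 ± 0.06, edgeR adjusted p = 0.46, and called higher at 0.15 with library totals).

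Regulators that have been tied to transglutaminase genes had 5 of 24 tested higher, 13 lower and 6 not called, or 8 and 9 with library totals. With TMM these are 20.8% higher and 54.2% lower, against 24.8% and 23.7% over all genes. Grhl1 fell by 2.72 ± 0.07 log2 units, and Klf4, a barrier transcription factor, from 543 ± 89.1 to 173 ± 24.0 CPM (-1.65 ± 0.13). The retinoic acid receptor gene Rarg fell by 0.31 ± 0.06 and the NF-kB gene Rela by 0.34 ± 0.07, and neither was called with library totals. Junb of AP-1 was not called (-0.05 ± 0.08, edgeR adjusted p = 0.64, and 0.15 with library totals, also not called), and the kinase gene Prkcd rose by 0.28 ± 0.06.

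Since the enzymes need calcium, genes of its entry and stores were counted. Of 16 that passed the filter, 6 rose, 5 fell and 5 had no call. This is 37.5% higher and 31.2% lower, against 24.8% and 23.7% over all genes. With library totals 8 rose and 5 fell. Atp2a2, the calcium pump that fills the endoplasmic reticulum, fell from 343 ± 24.3 to 224 ± 13.2 CPM and the phospholipase gene Plcd1 by 1.00 ± 0.09. The release channel gene Itpr3 rose from 271 ± 10.2 to 428 ± 35.7 CPM, the entry channel gene Orai2 by 0.66 ± 0.06 and Plcg1 by 0.87 ± 0.06. Trpv3, for a channel linked to transglutaminase activity in keratinocytes and named after its values were seen, went from 18.1, 14.9 and 15.2 CPM in wild type to 3.82, 6.18 and 5.82 CPM in knockout libraries. Casr, the calcium-sensing receptor gene, and Trpc4 had 0 counts throughout.

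Other genes behind ichthyosis, peeling skin and uncombable hair, the disorders to which TGM1, TGM5 and TGM3 belong in people, were lower in 19 of 21 and higher in 2, against 23.7% lower and 24.8% higher over all genes, with a median of -1.68. Cdsn, for corneodesmosin, the glue of surface cells, went from 1056, 887 and 855 CPM in wild type libraries 1, 2 and 3 to 127, 160 and 108 CPM in knockout libraries 4, 5 and 6. The lipase family gene Pnpla1 fell by 3.09 ± 0.13, the protease inhibitor gene Spink5 by 1.72 ± 0.08, Nipal4 by 1.11 ± 0.06 and Cast, for calpastatin, by 0.34 ± 0.06. The 2 that rose were St14, for matriptase (0.47 ± 0.05), and Padi3, for a deiminase of hair proteins (1.03 ± 0.21), the second named after its value was seen. The list shares Tchh, Csta1 and Flg2 with the substrates.

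Polyamines can serve as amine donors in place of lysine. Of 10 genes of their synthesis and turnover, 3 rose, 5 fell and 2 had no call. This is 30% higher and 50% lower, against 24.8% and 23.7% over all genes. With library totals 5 rose and 5 fell, a scale on which 6478 of all genes were called higher and 2452 lower. Odc1, the rate-limiting enzyme, fell from 1251 ± 68.0 to 499 ± 26.7 CPM, Amd1 by 0.61 ± 0.06 and Sat1 by 0.74 ± 0.06, while the Smox log2 fold change (0.13 ± 0.06, edgeR adjusted p = 0.0971) and Oaz1 (0.02 ± 0.05, edgeR adjusted p = 0.768) had no call. Both genes were called higher with library totals, and Smox also without wild type replicate 1 (0.18, edgeR adjusted p = 0.0242).

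Markers of cell identity were read beside these values. Their calls stand beside 24.8% higher and 23.7% lower over all genes tested. Of 7 keratinocyte markers 6 fell and 1 rose. Their summed level lay at 35250 to 40060 CPM in wild type libraries and 20530 to 21650 CPM in knockout ones. Most of that sum was Krt5 (19820 to 11540 CPM on average) and Krt14 (14960 to 7872 CPM). Of the 12 markers of inner root sheath and hair, where TG3 also works, 6 passed the filter, none of them a root sheath keratin. Of these 3 rose (Padi3, Msx2 and Hoxc13), 2 fell (Tchh and Dlx3) and 1 had no call, with a median of 0.21. Their sum was 191 to 221 against 144 to 162 CPM, Tchh alone going from 94.5 to 37.8 CPM on average. Melanocyte markers (7 of 7 tested, 5 lower) summed to 695 to 783 and 607 to 688 CPM, fibroblast markers (4 of 7 tested, 1 lower, Lum at 0) to 4.87 to 6.37 and 4.03 to 4.53 CPM, and endothelial markers (3 of 6 tested, 1 lower, Cdh5 and Emcn at 0) to 7.01 to 7.51 and 4.95 to 5.87 CPM. Macrophage and Langerhans markers (4 of 8 tested, 3 lower and 1 higher) summed to 62.9 to 75.2 and 53.2 to 58.2 CPM. Most of that sum was Cd68, from 49.1 to 27.2 CPM on average, and Cd14, from 14.5 to 26.5 CPM. Lyz2, called lower, had 163, 86 and 120 counts in wild type libraries and 1, 12 and 0 in knockout ones. The 4 markers under the filter, Ptprc, Adgre1, Cd207 and Itgam, had at most 28 counts in any library. Adgre1 had 23, 28 and 6 counts in wild type and 0, 1 and 0 in knockout libraries, and Itgam 20, 14 and 9 against 0, 6 and 0. Ptprc had at most 5 counts and Cd207 at most 1 in any library. T cell markers (2 of 5 tested, both higher) reached 0.00897 to 0.0802 CPM in wild type libraries and 0.878 to 1.05 CPM in knockout ones, with Cd3e and Cd247 at 0. The libraries also differed in Y-linked transcripts (Ddx3y, Eif2s3y, Kdm5d and Uty), with sums of 60.7 to 68.1 CPM (wild type) and 0.101 to 0.158 CPM (knockout). This split followed genotype in every library, so differences that go with it cannot be told apart from those of genotype. Cebpb, the deleted gene, was counted 12036 to 18184 times in wild type libraries and 78 to 109 times in knockout ones. The part of these differences in the values of the transglutaminases was not tested.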

How the data were processed

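The authors deposited 1 table of raw read counts per gene for the 6 libraries, with FastQC, STAR, HTSeq and DESeq2 and the builds mm39 and GRCm39 per the submitters' processing notes. Tool versions, annotation release and strand setting were not given in the sources used here, so reads of overlapping genes cannot be told apart. The counts, which sum to 81256192 to 122797031 per library, were fitted with edgeR 4.0.16 (R 4.3.3) by its robust quasi-likelihood test, genotype being the only factor, after filterByExpr at 10 counts (17659 genes) and scaling by the trimmed mean of M values. Adjusted p-values are Benjamini-Hochberg over all genes tested, and 0.05 was the threshold. SEs are the log2 fold change over the square root of F. P-values measure the spread between these libraries, which may be technical. The fit was tested on simulated counts in which few genes changed, as many up as down. That test could not judge the choice of scaling.

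Symbols were matched for 52083 of 55416 genes. Exon lengths and gene order came from GENCODE M21, on an older assembly, and the lengths are the union of exons. Profiles used log2 CPM with a prior count of 2. The members and gene lists were chosen with earlier results of these data known. Genes named are all members and homologues, the 3 coding genes on either side of each member, the 5 nearest profiles, and in each list the 5 (8 for substrates) with the highest mean CPM and the called one with the smallest p. Any other is said to be named after its value was seen, apart from the identity markers, Cebpb and genes with 0 counts. Alternatives were DESeq2 size factors, library totals, no low count filter, a mean of at least 1 CPM, DESeq2 1.42.0, limma 3.58.1 voom, and leaving out each library.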

Additional observations from a re-analysis of the deposited data

How the results depend on the processing

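No paired analysis was possible because the libraries are numbered 1 to 3 in wild type and 4 to 6 in knockout, with no number in common. The 4 members kept their sign in every setting in which they were fitted. Library totals moved the median of all genes from 0.01 to 0.21 log2 units, so that 6478 genes were called higher and 2452 lower in place of 4387 and 4192. On that scale 3 substrates were called higher, 0 matrix genes lower, 8 regulators higher and 5 polyamine genes higher, the medians of the processing (0.10) and polyamine (0.02) lists turned from -0.10 and -0.18, and 10 named genes changed sign, namely Adal (0.04), Anxa1 (0.17), Capn1 (0.05), Ccndbp1 (0.04), Junb (0.15), Lcmt2 (0.01), Nedd8 (0.10), Pdia3 (0.15), Rprd1b (0.08) and Snrpb (0.13). Of these genes, only Capn1 was called with TMM, and Anxa1 and Pdia3 were called with library totals. With no low count filter 1 homologue was called lower, though no homologue had more than 16 counts in any library. Leaving out 1 library gave 3781 to 4251 genes higher and 3719 to 4071 lower, 51 to 53 substrates lower, 0 to 1 matrix genes lower, and 2 to 4 polyamine genes higher. Of 683 values of 57 named genes under the alternatives, 645 kept their direction and side of the threshold, 14 lost and 10 gained the call with the same direction, and 14 changed sign. The sign changes outside library totals were in 3 uncalled genes with 1 library left out, where the Anxa1 log2 fold change ranged from -0.08 to 0.03, the Adal log2 fold change from -0.27 to 0.02 and the Junb log2 fold change from -0.12 to 0.04. Of the 20 nearest profiles, 17 were shared with a prior count of 0.5. A mean of at least 1 CPM left no value for Tgm5. Counts of 4 to 8 limit the knockout level of Tgm3.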
